A study of Mus musculus with 16 samples.

Results

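The kinases and adaptors that act just below the B cell receptor were followed by the mRNA of 10 genes, taken by symbol as a fixed list of Lyn, Blk, Fyn, Lck, Syk, Btk, Blnk, Lat, Plcg2 and Prkcb. All 10 were among the 23234 named genes of the table, and all 10 passed the low-value filter of at least 1 FPKM in at least 2 libraries, which left 11266 tested genes. None of the 10 encodes a protein used in the sort gates. FPKM, fragments scaled by transcript length and by the mapped fragments of the library, is a level per length, so levels of different genes can be set side by side.

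In the B cell receptor, antigen binding leads Src family kinases to phosphorylate the tails of Cd79a and Cd79b, where the kinase Syk then docks. Syk and the Tec family kinase Btk act on the scaffold protein Blnk and on the phospholipase encoded by Plcg2, whose products release calcium and activate protein kinase C beta, the product of Prkcb. In T cells, Lck, Fyn, Lat and the Blnk relative Lcp2 (SLP-76) have the matching places. In germinal centres, where activated B cells mutate their receptors and compete for antigen and T cell help, receptor signalling is known to be damped relative to naive B cells, and memory B cells are among the cells that leave.

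Sorted B cells of C57BL/6 mice gave 16 mRNA libraries in 6 sort gates. Donor naive B cells carried Bcl6-YFP, a reporter of the germinal centre factor Bcl6, and B1-8hi, a heavy chain for receptors against the hapten NP, and were placed in wild-type CD45.1+ hosts that kept their own lymphocytes. The hosts were immunised with NP-CGG in alum, and spleens of 9 hosts were pooled on day 10. Cells of all 6 gates were CD45.2+ (donor), NP-binding, CD138- and IgG1+. The LZ gate (3 libraries), light zone cells of the germinal centre, was CD38- CD86hi CXCR4lo. Inside the same surface gate, Fraction 2 (2 libraries, labelled recycling-prone) was Bcl6-YFPhi CD69hi and Fraction 3 (3 libraries, labelled under selection) was Bcl6-YFPhi CD69lo. The other 3 gates were CD38+ GL7-. Of these, Fraction 5 (3 libraries, labelled pro-memory) was Bcl6-YFPhi Efnb1hi, Fraction 6 (2 libraries, labelled pre-memory) was Bcl6-YFPlo Efnb1hi, and Fraction 7 (3 libraries, labelled mature memory) was Bcl6-YFPlo Efnb1lo. Whether each library of a gate had its own pool of animals is not given in the labels, and p-values cover the spread between libraries alone, which may be technical.

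The FPKM of a library summed to 416741 to 492578, and 10133 to 10552 genes reached 1 FPKM per library. Absolute depth is unknown, and the steps of the lowest values put the libraries at 0.921 to 1.21 times the depth of LZ library 1. Libraries of one gate correlated at 0.978 to 0.986 (Pearson's r of log2 values across genes). All 5 listed B cell markers, among them Ms4a1, Pax5, Cd79a and Cd74, were present in every library, with a summed FPKM of 8125 to 12951. The 5 germinal centre markers summed to 59.9 to 75.8 FPKM in Fraction 7, against 478 to 549 FPKM in LZ. Libraries 2 and 3 of Fraction 7 stood apart from library 1 in the plasma cell gene Igj, at 296 and 292 FPKM against 46.9 FPKM, and results of Fraction 7 were also computed without them.

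The 10 genes did not move together. Lat, Lck and Fyn had their lowest mean in Fraction 7, and the ratio of the highest to the lowest gate mean was 12.2 for Lat, 4.66 for Lck and 2.62 for Fyn. Blk and Prkcb went the other way, with their lowest mean in Fraction 2 and their highest in Fraction 6 for Blk and Fraction 7 for Prkcb, at ratios of 2.62 and 2.00. Syk, Lyn, Blnk, Plcg2 and Btk varied less, with ratios of 1.59, 1.48, 1.42, 1.40 and 1.28. All 10 differed among the 6 gates in limma's moderated F test at an adjusted p under 0.05, as did 69.7% of all tested genes. By their mean over the 16 libraries, Plcg2, Syk and Blnk were above 96.9%, 96.6% and 96.5% of tested genes, and Lat, the lowest, was above 29.0%.

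**Figure D1:**
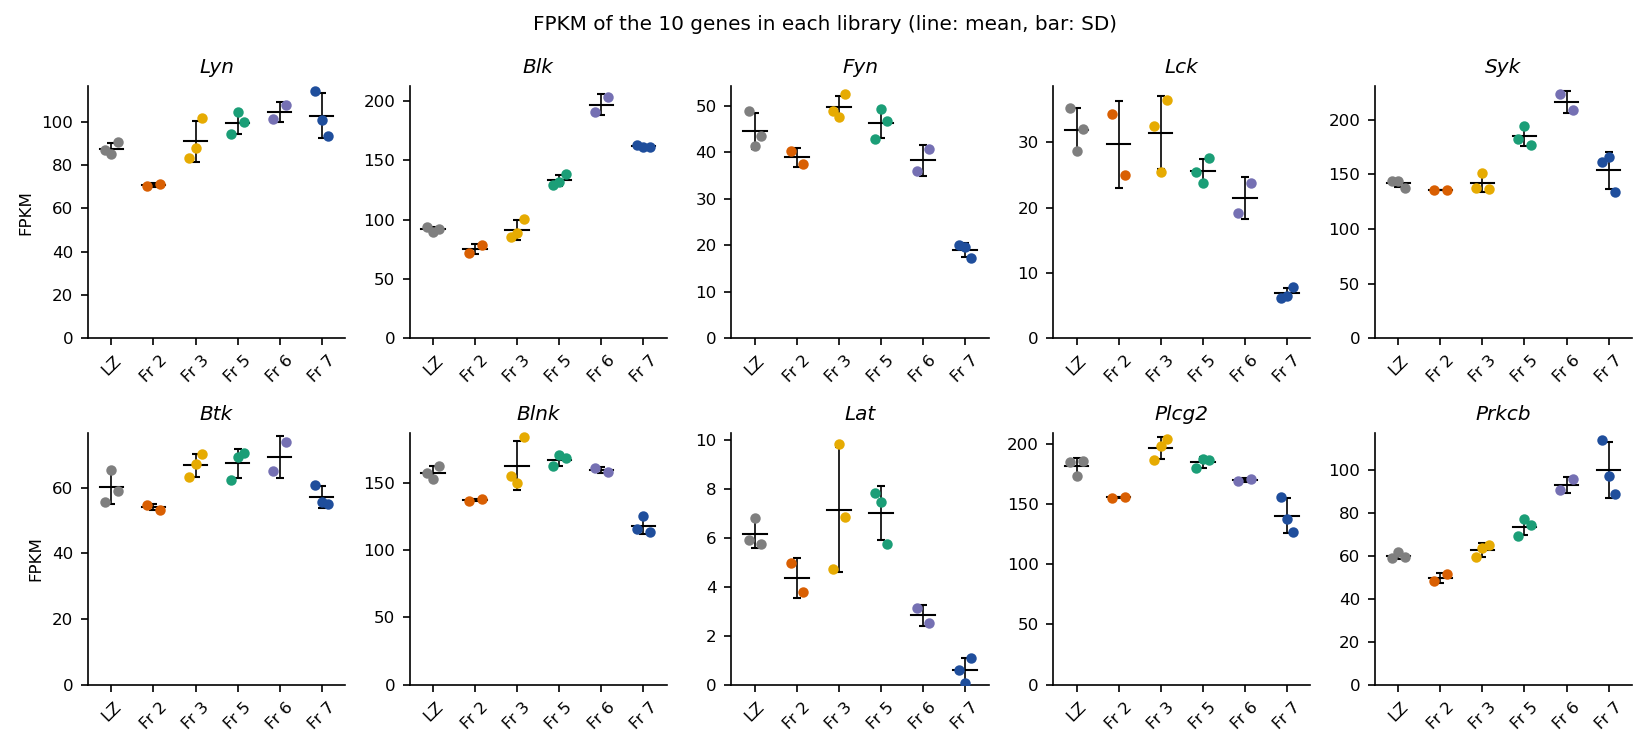
FPKM (y axis, linear from 0) of the 10 genes in each library (points), with the gates from the light zone (LZ) to mature memory (Fr 7) on the x axis, the mean as a line and the SD as a bar. Lck, Fyn and Lat are lowest in Fraction 7, where Lck lies between 6.20 and 7.86 FPKM, and Blk and Prkcb are higher in Fractions 5 to 7 than in LZ.

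Lck encodes the Src family kinase that starts signalling from the T cell receptor. It had 35.2, 28.7 and 32.0 FPKM in the LZ libraries, 34.4 and 25.0 in Fraction 2, 32.5, 25.4 and 36.5 in Fraction 3, 25.5, 23.7 and 27.6 in Fraction 5, 19.2 and 23.8 in Fraction 6, and 6.20, 6.52 and 7.86 in Fraction 7. No Fraction 7 library overlapped with any other gate, and the other gates overlapped with their neighbours in the order of means. Lck fell in Fraction 7 against LZ, 6.86 ± 0.878 against 32.0 ± 3.27 FPKM (SD, n = 3 each; log2 change -2.07 ± 0.15, SE, adjusted p = 3.5e-08). It was also lower in Fraction 7 than in Fraction 6 (log2 change -1.51 ± 0.16, SE, adjusted p = 2.2e-05) and Fraction 5 (log2 change -1.76 ± 0.15, SE, adjusted p = 3.2e-07). Each of these calls was kept under every alternative run. Between Fraction 6 and Fraction 5 the log2 difference was -0.25 (95% interval -0.60 to 0.11, adjusted p = 0.347), which did not pass the test.

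Lck has a distal and a proximal start, and RefSeq annotation of GRCm38.p6 places both on the minus strand of chromosome 4. The 250 bases upstream of each start are shown because Lck had the largest change among the kinases. Capitals mark the ETS core AGGAAG and the E-box CAGGTG on either strand, the cores recognised by ETS factors and by E proteins.
Lck start 1, chr4:129573642-129573891, minus strand: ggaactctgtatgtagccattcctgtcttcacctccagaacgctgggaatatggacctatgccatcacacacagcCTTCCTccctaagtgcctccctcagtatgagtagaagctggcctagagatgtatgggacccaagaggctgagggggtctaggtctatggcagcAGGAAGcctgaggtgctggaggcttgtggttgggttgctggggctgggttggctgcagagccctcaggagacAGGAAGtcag
Lck start 2, chr4:129558373-129558622, minus strand: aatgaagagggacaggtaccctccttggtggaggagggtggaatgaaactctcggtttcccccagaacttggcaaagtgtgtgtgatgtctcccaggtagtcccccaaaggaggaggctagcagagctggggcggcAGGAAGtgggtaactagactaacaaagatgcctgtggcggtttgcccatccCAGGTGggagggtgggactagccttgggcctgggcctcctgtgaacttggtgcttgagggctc

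Start 1 held 3 ETS cores and start 2 held 1 ETS core and 1 E-box. Of 32851 RefSeq promoter windows of the same length, 29.5% held the ETS core and 17.2% the E-box, so such matches are common and are given as a description of the letters only.

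Fyn, a further Src family kinase used by B and T cells, had 48.9, 41.3 and 43.4 FPKM in the LZ libraries, 40.3 and 37.5 in Fraction 2, 48.9, 47.6 and 52.5 in Fraction 3, 42.9, 49.3 and 46.7 in Fraction 5, 36.0 and 40.7 in Fraction 6, and 20.1, 19.6 and 17.3 in Fraction 7. Fraction 7 again stood below all other gates with no overlap, and the means of the other gates lay within 38.3 to 49.7 FPKM. Fyn fell in Fraction 7 against LZ (log2 change -1.19 ± 0.08, SE, adjusted p = 3.65e-08), against Fraction 6 (log2 change -0.98 ± 0.09, SE, adjusted p = 8.38e-06) and against Fraction 5 (log2 change -1.24 ± 0.08, SE, adjusted p = 4.44e-08), and these calls too were kept under every alternative. Across the 16 libraries the gene most like Fyn was Cdkl1 (r = 0.988), and Efnb1, whose protein the gate selects as low in Fraction 7, was the third (r = 0.982). The window upstream of Fyn, shown beside those of Lck and Lat because the 3 genes were low in the same gate, held none of the 3 motifs searched.
Fyn, chr10:39369549-39369798, plus strand: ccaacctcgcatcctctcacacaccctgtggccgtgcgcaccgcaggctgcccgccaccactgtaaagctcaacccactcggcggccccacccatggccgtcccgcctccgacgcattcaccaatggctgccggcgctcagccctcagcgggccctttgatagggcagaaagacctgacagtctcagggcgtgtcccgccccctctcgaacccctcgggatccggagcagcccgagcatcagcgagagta

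Lyn, the Src family kinase that phosphorylates both activating and inhibitory receptors in B cells, had 86.9, 84.9 and 90.4 FPKM in the LZ libraries, 70.2 and 71.3 in Fraction 2, 83.2, 87.8 and 102 in Fraction 3, 94.3, 104 and 99.9 in Fraction 5, 101 and 108 in Fraction 6, and 114, 101 and 93.6 in Fraction 7. Fraction 2 was below every other gate, and the neighbours above it in the order of means, LZ, Fraction 3, Fraction 5, Fraction 7 and Fraction 6, overlapped one with the next. Lyn was higher in Fraction 5 than in Fraction 2, 99.5 ± 5.09 (SD, n = 3) against 70.7 ± 0.731 FPKM (SD, n = 2; log2 change 0.49 ± 0.09, SE, adjusted p = 0.000812). It was higher in Fraction 7 than in LZ by a smaller step (log2 change 0.23 ± 0.08, SE, adjusted p = 0.0285), and this call was lost without LZ library 1 (adjusted p = 0.0641), LZ library 2 (0.0819) or Fraction 7 library 1 (0.127) and in the fit of only these gates (0.0591).

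Blk, a Src family kinase largely confined to the B lineage, had 93.9, 89.3 and 92.3 FPKM in the LZ libraries, 72.0 and 78.4 in Fraction 2, 84.96, 88.5 and 101 in Fraction 3, 129, 132 and 138 in Fraction 5, 191 and 203 in Fraction 6, and 163, 161 and 161 in Fraction 7. All 8 libraries of the CD38+ GL7- gates lay above all 8 libraries of the germinal centre gates. Blk was higher in Fraction 5 than in Fraction 3 (log2 change 0.54 ± 0.07, SE, adjusted p = 6.01e-05) and in Fraction 6 than in Fraction 5 (log2 change 0.56 ± 0.07, SE, adjusted p = 0.000114). It was lower in Fraction 7 than in Fraction 6 (log2 change -0.28 ± 0.07, SE, adjusted p = 0.0139), a call that was lost without Fraction 6 library 2 (adjusted p = 0.141) after quantile normalization (0.0954), in the fit of only these gates (0.083) and without Fraction 7 libraries 2 and 3 (0.114). Against LZ, Blk was higher in Fraction 7, 162 ± 1.14 against 91.8 ± 2.36 FPKM (SD, n = 3 each; log2 change 0.81 ± 0.07, SE, adjusted p = 1.3e-07). Its nearest genes were Foxp1 (r = 0.988), a transcription factor that is low in germinal centre B cells, Kif21b (0.987) and Tlr1 (0.986).

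These opposite moves changed the makeup of the Src family. Over 7 family genes (Lyn, Blk, Fyn, Lck, Fgr, Yes1 and Src) the summed FPKM averaged 266 in LZ, 224 in Fraction 2, 272 in Fraction 3, 317 in Fraction 5, 377 in Fraction 6 and 303 in Fraction 7. The share of Fyn and Lck together was 28.8% ± 1.66 in LZ, 30.6% ± 3.31 in Fraction 2, 29.8% ± 1.64 in Fraction 3, 22.7% ± 0.151 in Fraction 5, 15.9% ± 0.938 in Fraction 6 and 8.53% ± 0.168 in Fraction 7 (SD, n = 2 or 3 libraries). Blk alone made up 53.4% ± 1.78 of the sum in Fraction 7 and 34.6% ± 0.567 in LZ. Being ratios within a library, these shares are the same whatever single factor scales a library, though not under quantile normalization, and they show unequal change rather than which gene changed. Of the 9 listed myeloid markers, 3 stayed under 1 FPKM in all libraries and the list summed to 15.6 to 46.0 FPKM in Fraction 7 and 3.61 to 21.1 FPKM in LZ, with Itgam at 12.8, 8.22 and 12.5 FPKM in Fraction 7 and Csf1r at no more than 0.528 FPKM in any library. The part of myeloid cells in these shares was not tested.

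**Figure D2:**
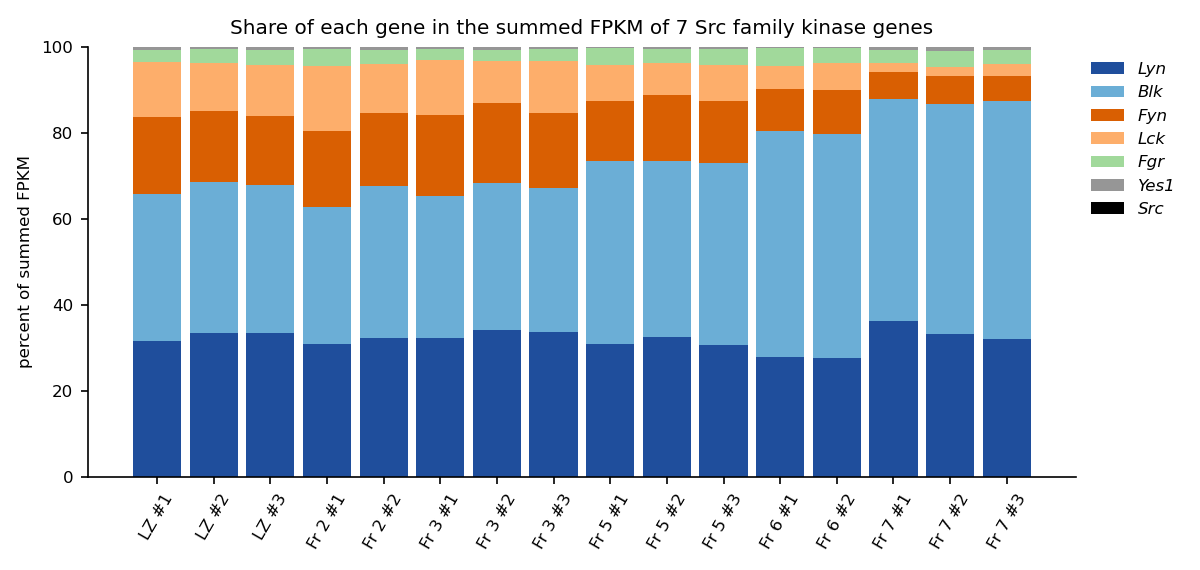
Share of each of 7 Src family kinase genes in their summed FPKM (y axis, percent) in each library (x axis, LZ to Fr 7). Fyn and Lck (orange) take 8.53% on average in Fraction 7 and 28.8% in LZ, and Blk (light blue) takes 53.4% in Fraction 7 and 34.6% in LZ.

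Syk, the kinase that binds the phosphorylated receptor tails, had 144, 144 and 137 FPKM in the LZ libraries, 136 and 135 in Fraction 2, 138, 151 and 137 in Fraction 3, 183, 194 and 177 in Fraction 5, 223 and 209 in Fraction 6, and 161, 166 and 134 in Fraction 7. It was highest in Fractions 5 and 6, and LZ, Fraction 3 and Fraction 2 lay within 135 to 151 FPKM. Syk was higher in Fraction 5 than in Fraction 3 (log2 change 0.38 ± 0.08, SE, adjusted p = 0.00235) and than in Fraction 2 (log2 change 0.44 ± 0.09, SE, adjusted p = 0.000923), and lower in Fraction 7 than in Fraction 6 (log2 change -0.49 ± 0.09, SE, adjusted p = 0.000972), where the fit of only these gates gave an adjusted p of 0.053. Fraction 7 and LZ overlapped, with means of 153 and 142 FPKM and a difference of 0.11 on the log2 scale (95% interval -0.06 to 0.27, adjusted p = 0.243). Fraction 7 library 3 was the lowest of its gate, and without it Syk passed the test as higher in Fraction 7 than in LZ (log2 change 0.20, adjusted p = 0.0152). With all libraries kept, Syk was likewise called higher in Fraction 7 after quantile normalization (0.44, adjusted p = 0.000502), median-ratio scaling (0.21, adjusted p = 0.0102) and array weights (0.17, adjusted p = 0.0447). The gene most like Syk was Cd72 (r = 0.955), an inhibitory coreceptor, and Cd22 (0.934), another inhibitory coreceptor, was the third.

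Btk, the Tec family kinase whose loss blocks B cell development in humans, varied least of the 10, with 55.7, 65.5 and 59.0 FPKM in the LZ libraries, 54.7 and 53.3 in Fraction 2, 63.1, 67.3 and 70.2 in Fraction 3, 62.5, 69.4 and 70.5 in Fraction 5, 64.9 and 73.8 in Fraction 6, and 60.9, 55.6 and 54.9 in Fraction 7. Above Fraction 2, each gate overlapped with the next in the order of means. Btk was lower in Fraction 7 than in Fraction 6 (log2 change -0.27 ± 0.09, SE, adjusted p = 0.0385), but the call was lost when Fraction 6 library 2 (adjusted p = 0.338), Fraction 7 library 2 (0.0965) or Fraction 7 library 3 (0.105) was left out. It was also lost without Fraction 7 libraries 2 and 3 together (0.369), after either scaling, with no filter and in the fit of only these gates, at adjusted p of 0.0552 to 0.138. Against LZ, Fraction 7 gave a log2 difference of -0.07 (95% interval -0.24 to 0.10), and after quantile normalization the sign turned and the difference passed the test (0.32, adjusted p = 0.000533).

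Blnk, the scaffold that brings Btk to its substrate Plcg2, had 157, 153 and 163 FPKM in the LZ libraries, 137 and 138 in Fraction 2, 155, 149 and 184 in Fraction 3, 162, 171 and 168 in Fraction 5, 161 and 158 in Fraction 6, and 116, 125 and 113 in Fraction 7. The Fraction 7 libraries were below all others with no overlap. Blnk fell in Fraction 7 against Fraction 6 (log2 change -0.43 ± 0.08, SE, adjusted p = 0.00156) and against Fraction 5 (log2 change -0.50 ± 0.07, SE, adjusted p = 5.74e-05), and both calls were kept under every alternative. The fall against LZ (log2 change -0.41 ± 0.07, SE, adjusted p = 0.000179) was lost after quantile normalization (-0.07, adjusted p = 0.393). Among the genes most like Blnk was Vav1 (r = 0.967), an exchange factor that acts beside it at the receptor.

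Lat, a membrane scaffold of T cell receptor signalling, was the lowest of the 10, with 5.91, 6.79 and 5.73 FPKM in the LZ libraries, 4.95 and 3.79 in Fraction 2, 4.72, 9.80 and 6.86 in Fraction 3, 7.80, 7.46 and 5.75 in Fraction 5, 3.13 and 2.53 in Fraction 6, and 0.595, 0.0626 and 1.09 in Fraction 7. The Fraction 7 libraries lay below all Fraction 6 libraries, and these lay below all libraries of the other gates. Lat fell in Fraction 6 against Fraction 5, 2.83 ± 0.424 (SD, n = 2) against 7.00 ± 1.10 FPKM (SD, n = 3; log2 change -1.06 ± 0.27, SE, adjusted p = 0.015), a call lost without Fraction 6 library 1 (adjusted p = 0.0551) or library 2 (0.118) and with a pseudocount of 0.1 (0.158). It fell again in Fraction 7 against Fraction 6 (log2 change -1.32 ± 0.27, SE, adjusted p = 0.0033) and in Fraction 7 against LZ (log2 change -2.22 ± 0.24, SE, adjusted p = 2.57e-06). No alternative removed these calls. The mean FPKM of Lat was 10.5 times lower in Fraction 7 than in LZ. This fold was 7.27 without Fraction 7 library 2 and 18.7 without Fraction 7 library 3. Because 1 was added to each FPKM before taking logs, the log2 change understates the change of so low a gene. The RefSeq window upstream of Lat held 1 ETS core, on the strand opposite to the gene.
Lat, chr7:126369569-126369818, minus strand: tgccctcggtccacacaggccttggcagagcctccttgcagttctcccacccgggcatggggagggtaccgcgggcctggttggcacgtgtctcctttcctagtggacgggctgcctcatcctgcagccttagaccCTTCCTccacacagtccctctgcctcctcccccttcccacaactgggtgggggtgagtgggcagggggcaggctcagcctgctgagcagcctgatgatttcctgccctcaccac

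Lcp2, the T cell relative of Blnk and a partner of Lat, is not one of the 10 but had the same order of gates at its low end. Its mean was 29.9 FPKM in LZ, 31.2 FPKM in Fraction 5, 21.4 FPKM in Fraction 6 and 9.25 FPKM in Fraction 7 (log2 change -1.59 ± 0.08, SE, adjusted p = 1.48e-09, Fraction 7 against LZ). Genes of T cells themselves were low in the sort. Zap70, the T cell counterpart of Syk, reached at most 0.308 FPKM in any library, so it was not tested. Of 13 T cell markers, 9 were under 1 FPKM in all libraries, and Cd3e was at 0 in 15 of 16. Cd2 and Cd5 are also expressed by B cells. Without them, the other 11 markers summed to 2.11 to 5.07 FPKM in Fraction 7 and 1.37 to 2.11 FPKM in LZ. The part of T cells in the levels of Lck, Fyn and Lat was not tested. In bulk RNA, fewer cells that express a gene and less RNA of it per cell cannot be told apart.

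**Figure D3:**
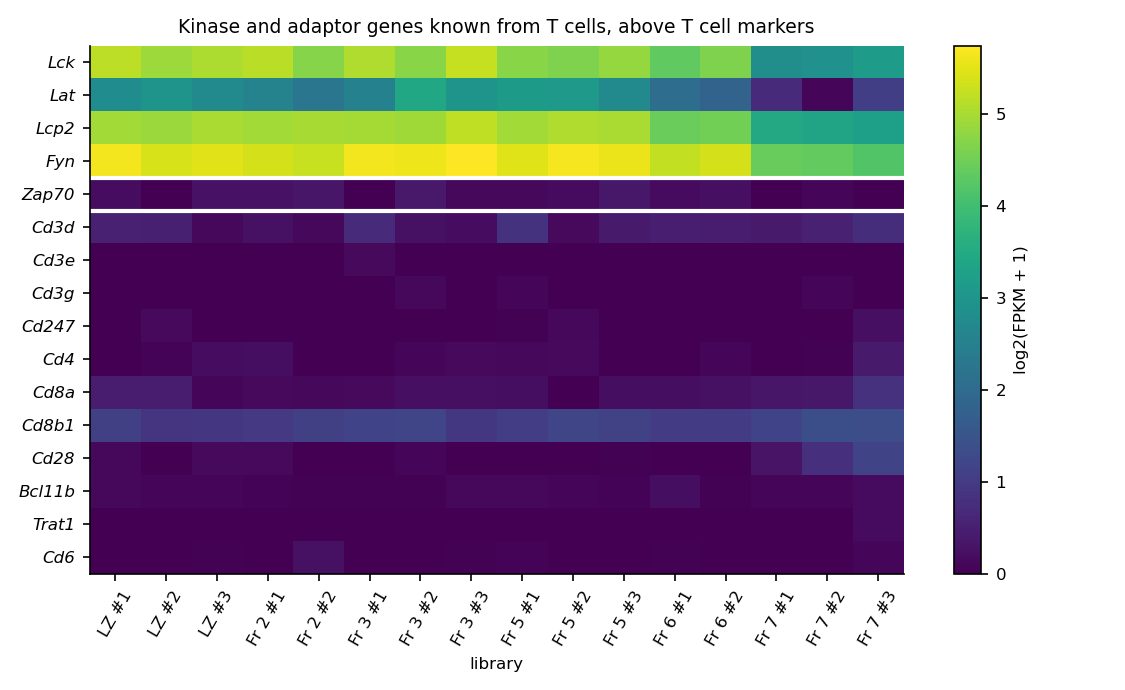
Colour gives log2(FPKM + 1) of Lck, Lat, Lcp2 and Fyn (top), Zap70 (middle) and 11 T cell markers other than Cd2 and Cd5 (bottom) in each library (x axis, LZ to Fr 7). The top genes dim in the 3 Fraction 7 libraries, and most T cell markers stay near 0 in all 16.

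Plcg2, the phospholipase that splits a membrane lipid into the messengers for calcium release and protein kinase C, had the highest mean of the 10 over the 16 libraries, with 185, 173 and 186 FPKM in the LZ libraries, 155 and 156 in Fraction 2, 187, 198 and 204 in Fraction 3, 179.6, 188 and 187 in Fraction 5, 169 and 171 in Fraction 6, and 156, 138 and 127 in Fraction 7. The Fraction 2 libraries lay below all libraries of LZ, Fraction 3, Fraction 5 and Fraction 6, and Fraction 7 was the only gate that overlapped with Fraction 2. Plcg2 fell in Fraction 7 against Fraction 5 (log2 change -0.40 ± 0.07, SE, adjusted p = 0.000302) under every alternative. It also fell against LZ (log2 change -0.37 ± 0.07, SE, adjusted p = 0.000334), which quantile normalization removed (-0.06, adjusted p = 0.329), and against Fraction 6 (log2 change -0.28 ± 0.08, SE, adjusted p = 0.019), which was lost without Fraction 6 library 1 (adjusted p = 0.0808), Fraction 6 library 2 (0.115) or Fraction 7 library 3 (0.0639), without Fraction 7 libraries 2 and 3 (0.351), after quantile normalization (0.0767) and in the fit of only these gates (0.166).

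Prkcb, which encodes protein kinase C beta and leads from diacylglycerol to NF-kappaB, had 59.1, 61.9 and 59.5 FPKM in the LZ libraries, 48.2 and 51.6 in Fraction 2, 59.3, 63.7 and 65.3 in Fraction 3, 69.3, 77.2 and 74.6 in Fraction 5, 90.5 and 95.8 in Fraction 6, and 114, 97.1 and 88.7 in Fraction 7. The libraries of Fractions 6 and 7 overlapped with each other and lay above all the rest. Prkcb was higher in Fraction 6 than in Fraction 5 (log2 change 0.34 ± 0.09, SE, adjusted p = 0.0212), a call lost without Fraction 5 library 1 (adjusted p = 0.0681), Fraction 6 library 1 (0.0686) or Fraction 6 library 2 (0.153). It was higher in Fraction 7 than in Fraction 5 (log2 change 0.43 ± 0.08, SE, adjusted p = 0.000676) and than in LZ, 99.98 ± 13.0 against 60.1 ± 1.504 FPKM (SD, n = 3 each; log2 change 0.72 ± 0.08, SE, adjusted p = 4.04e-06), and no alternative removed these calls. The Prkcb window is shown because, of the members called higher in Fraction 7 than in LZ, it was the one with a window in the RefSeq table, with the octamer ATTTGCAT in capitals on the opposite strand.
Prkcb, chr7:122288875-122289124, plus strand: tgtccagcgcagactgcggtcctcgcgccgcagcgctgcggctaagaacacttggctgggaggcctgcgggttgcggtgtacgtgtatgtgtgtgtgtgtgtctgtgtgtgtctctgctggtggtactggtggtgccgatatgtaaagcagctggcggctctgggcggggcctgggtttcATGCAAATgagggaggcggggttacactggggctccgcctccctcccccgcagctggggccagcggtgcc

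The octamer, the motif of Oct factors known from immunoglobulin promoters, was held by 1.60% of the 32851 windows and by 2 of the 10 windows found for 8 of the genes, those of Prkcb and Blnk. The Blnk window also held 1 ETS core and 1 E-box, and Blnk was lower in Fraction 7 while Prkcb was higher. No window was found for Lyn and Blk.

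**Figure D4:**
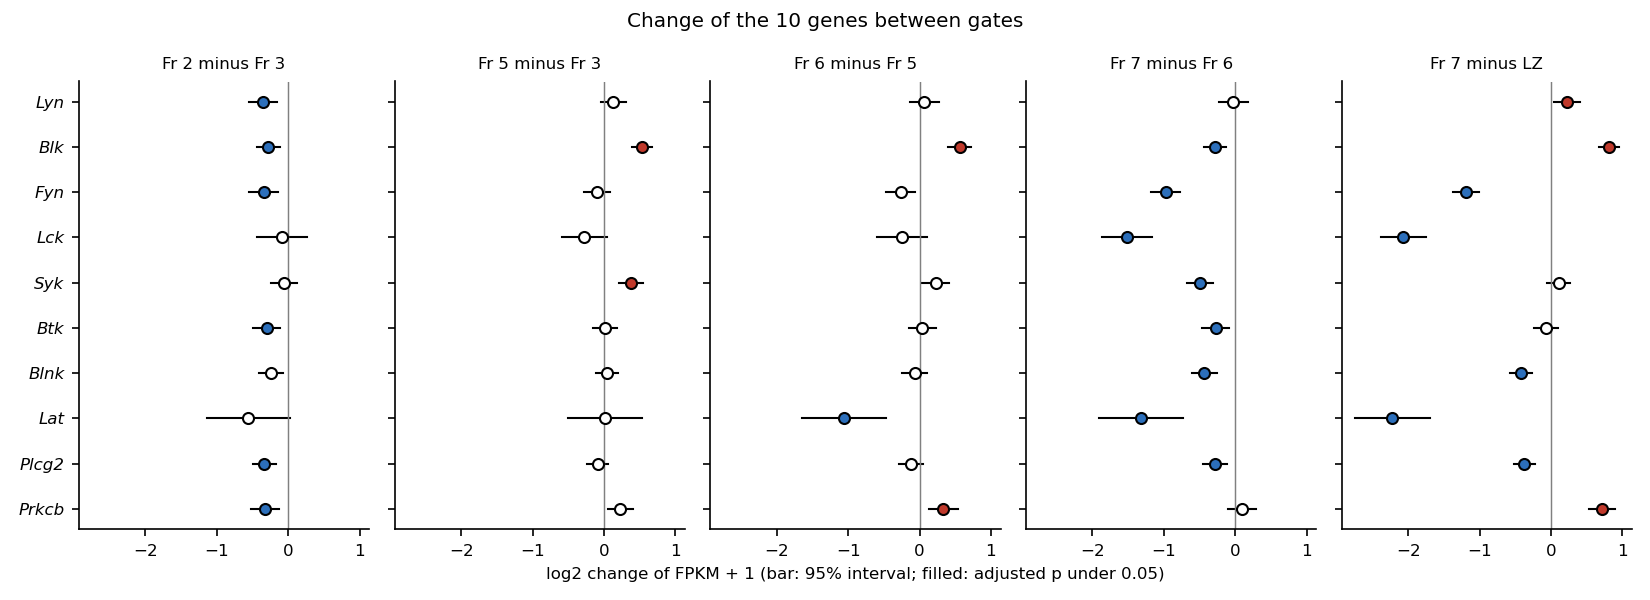
Log2 change of FPKM + 1 (x axis) of the 10 genes in 5 comparisons, as points with 95% intervals, filled where the limma adjusted p was under 0.05 (blue lower, red higher in the first-named gate). Lck lies at -2.07 and Lat at -2.22 for Fraction 7 minus LZ, where Blk lies at 0.81 and Prkcb at 0.72.

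Fraction 2 was set against Fraction 3 to compare CD69hi with CD69lo cells of the same Bcl6-YFPhi light zone gate. Lyn, Blk, Fyn, Btk, Plcg2 and Prkcb were lower in Fraction 2, by log2 changes between -0.35 (Lyn) and -0.28 (Blk), so 6 of the 10 were called, all lower. Of all tested genes 15.6% were called, 9.17% higher and 6.45% lower. The median change of the 10 was -0.31, against 0.04 over all tested genes. The 5 general B cell markers had a median of -0.34, with 3 lower and 0 higher, and the 5 germinal centre markers one of -0.30, with 2 lower and 0 higher, and their part in the change of the 10 was not tested. The libraries did not overlap for 8 of the 10, as for 48.1% of tested genes. These calls rest on few libraries. All 6 calls were lost without Fraction 2 library 1 and also without Fraction 2 library 2, in fits that left 1 Fraction 2 library. Without Fraction 3 library 3 only 1 of the 10 passed limma's test at an adjusted p under 0.05. Lyn and Blk also lost the call in the fit of only these gates (adjusted p = 0.0808 and 0.123), and Btk and Prkcb with no filter (0.0535 and 0.0516). The log2 changes of the 6 genes lay between -0.41 and -0.20 when any 1 library of the pair of gates was left out. Lck differed by -0.08 and Syk by -0.06, which did not pass.

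Genes of the 5 lists around the receptor were counted in the same comparison. Of the 6 receptor chains and positive coreceptors, 3 were lower and 1 was higher in Fraction 2, with Cd79b at -0.62 (adjusted p = 0.00312) and Cd79a at -0.51 among the lower ones, and Cd40 (0.47), which binds the help signal of T cells, as the higher one. Of 10 tested genes that control Src kinases, 5 were lower, among them the ubiquitin ligase genes Cbl (-0.42) and Cblb (-0.52) and the adaptor gene Sla (-0.60), and none was higher. Of 13 tested inhibitory receptors, phosphatases and Dok adaptors, 6 were lower and 0 higher, led by Dok3 (-0.86, adjusted p = 0.000619), an adaptor that damps receptor signals, and Siglecg (-0.51). Of 21 related kinases and adaptors, 6 were lower and 0 higher, with Lax1 at -0.69, Pik3ap1 at -0.39 and Bank1 at -0.45. Of 27 genes of the calcium, diacylglycerol and NF-kappaB branch, 5 were lower and 0 higher, with Orai2, a calcium channel gene, at -0.69. The list medians lay between -0.37 and -0.13, against 0.04 for all tested genes. Of the 15 list genes taken as the 3 called genes with the smallest adjusted p in each list, 8 lost the call when a single library was left out, at adjusted p up to 0.127 (Bank1, Cbl, Cblb, Cd40, Cd79a, Itpr3, Lilrb3 and Sla).

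**Figure D5:**
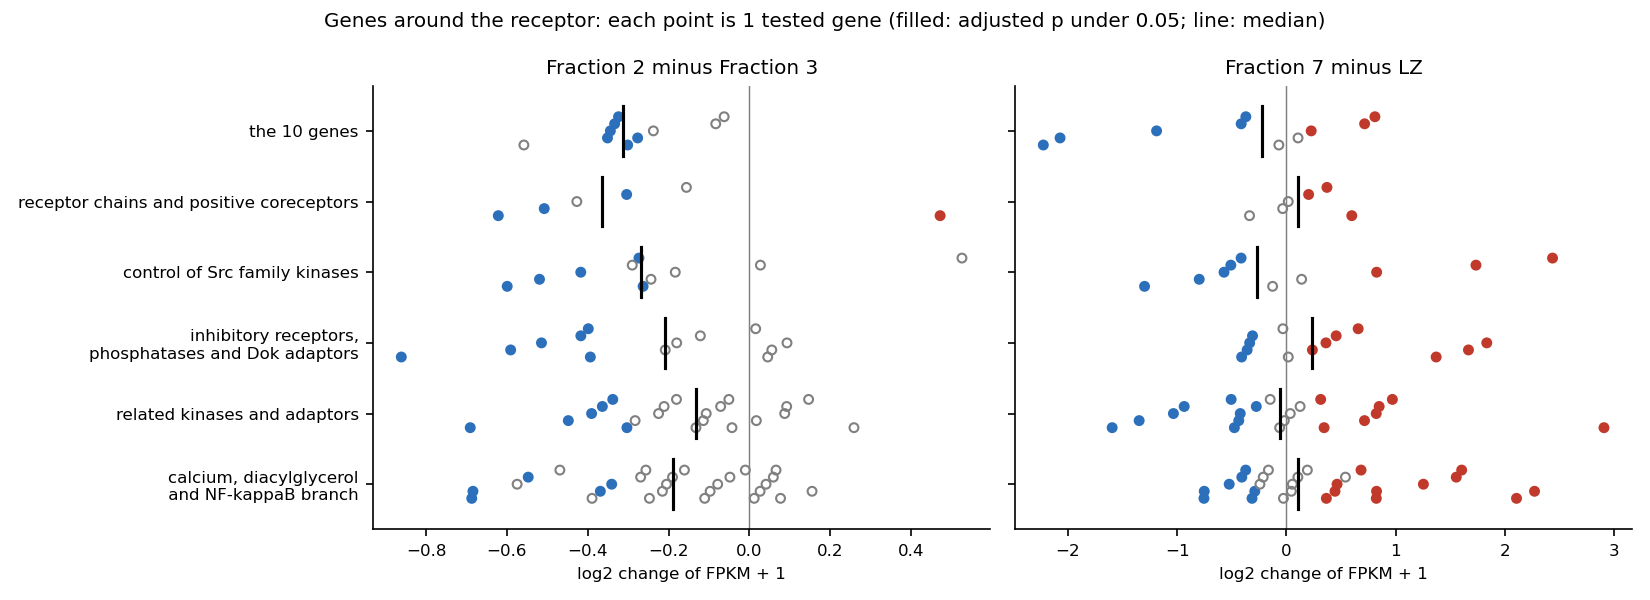
Log2 change of FPKM + 1 (x axis) of each tested gene (points, filled where the adjusted p was under 0.05) of the 10 genes and 5 lists of genes around the receptor, for Fraction 2 minus Fraction 3 (left) and Fraction 7 minus LZ (right), with the list median as a line. On the left the medians lie between -0.37 and -0.13, and on the right called genes of 5 of the 6 rows lie on both sides of 0, the receptor chains having 3 higher and 0 lower.

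Fraction 5 was set against both Bcl6-YFPhi light zone gates, the comparison of pro-memory cells with the germinal centre cells around them. Against Fraction 3, 2 of the 10 were called, Blk and Syk, both higher, where 29.5% of all tested genes were called, 9.99% higher and 19.5% lower. The libraries did not overlap for 3 of the 10, as for 44.1% of tested genes. The median of the 10 was 0.03, against -0.03 over all tested genes. General B cell markers gave 3 of 5 higher and 0 lower, with a median of 0.23. The 5 germinal centre markers gave 0 higher and 1 lower, with a median of 0.011. The part of these markers in the change of the 10 was not tested. After quantile normalization 6 of the 10 were called, all higher. Against Fraction 2, 7 of the 10 were called (Lyn, Blk, Syk, Btk, Blnk, Plcg2 and Prkcb), all higher, where 43.7% of tested genes were called, 16.6% higher and 27.1% lower. The median of the 10 was 0.38 against -0.04 for all tested genes, and 9 of the 10 did not overlap, as for 62.5% of tested genes. All 5 B cell markers were higher as well, with a median of 0.52. Blnk and Plcg2 lost this call without either Fraction 2 library and Btk without library 2, at adjusted p of 0.0532 to 0.0864. In the comparison with Fraction 3, of 13 tested inhibitory genes, 6 were higher and 0 lower, with Cd72 at 150.05 ± 12.6 FPKM in Fraction 5 against 55.9 ± 4.61 FPKM in Fraction 3 (SD, n = 3 each; log2 change 1.41 ± 0.15, SE, adjusted p = 2.24e-05) and Cd22 at a log2 change of 0.41. Among genes that control Src kinases, Ptpn22 (1.29), a phosphatase that acts on these kinases, and Sla (0.98) were higher and Sla2 (-0.58) was lower. The receptor chains Cd79a (0.43) and Cd79b (0.35) were higher, and both calls were lost when 1 library was left out, at adjusted p up to 0.0838. Of related kinases and adaptors 4 of 21 were higher and 0 lower, among them the adaptor gene Sh3bp2 (0.71), and of the calcium, diacylglycerol and NF-kappaB branch 6 of 27 were higher and 0 lower, among them Nfatc1 (0.56).

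Fraction 6 was set against Fraction 5, Bcl6-YFPlo against Bcl6-YFPhi cells of the Efnb1hi gate. Blk and Prkcb were higher and Lat was lower in Fraction 6, 3 calls among the 10, where 17.5% of tested genes were called, 7.07% higher and 10.4% lower. The median of the 10 was -0.014, against -0.0021 over all tested genes. All 5 germinal centre markers were lower, with a median of -1.23, and their part in the change of the 10 was not tested. The libraries did not overlap for 7 of the 10, and for 47.9% of tested genes. Without either Fraction 6 library only Blk was called. Of the listed genes, Rasgrp2 (1.03, adjusted p = 0.00153), Dgka (0.99), which removes the diacylglycerol that activates Prkcb, and Malt1 (0.54) were among 5 of 27 genes of the calcium, diacylglycerol and NF-kappaB branch that were higher, with 0 lower. Sh3bp2 was higher (0.78) and Lcp2 (-0.53) and Pik3ap1 (-0.36) were lower among related kinases and adaptors, where 1 of 21 was higher and 3 were lower. The receptor chain, Src control and inhibitory lists each had 2 higher and 0 lower. Dgka lost its call without Fraction 6 library 2 (adjusted p = 0.0641).

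Fraction 7 was set against Fraction 6, Efnb1lo against Efnb1hi cells of the Bcl6-YFPlo gate. Lck, Lat, Fyn, Syk, Blnk, Blk, Plcg2 and Btk were lower in Fraction 7, so 8 of the 10 were called, all lower, where 21.2% of tested genes were called, 7.37% higher and 13.9% lower. The libraries of these gates did not overlap for 8 of the 10 and for 46.4% of tested genes. The median of the 10 was -0.36, against -0.05 over all tested genes. General B cell markers were lower too, 3 of 5 with 0 higher and a median of -0.41. All 5 germinal centre markers were lower, with a median of -1.91, and all 5 plasma cell markers were higher, with a median of 0.99. The part of these shifts in the change of the 10 was not tested. Lyn (95% interval -0.23 to 0.17) and Prkcb (-0.10 to 0.29) were not called. The calls of Blk, Btk and Plcg2 depended on a single library, as given above, and quantile normalization left 5 of the 10 called. Without Fraction 7 libraries 2 and 3, which had the higher Igj, the fit rested on 1 Fraction 7 library. The log2 changes of Blk, Btk and Plcg2 were then -0.27, -0.18 and -0.12. Many partners were lower in Fraction 7 as well. Among genes that control Src kinases 5 of 10 were lower and 1 higher, with Cblb at -0.96 (adjusted p = 0.00011), Pag1, which brings Csk to the membrane, at -0.88, and Csk, the kinase that switches Src kinases off, at -0.40. Inhibitory genes gave 7 of 13 lower and 0 higher, with Cd72 at -1.09, Cd22 at -0.51 and Fcgr2b, the inhibitory Fc receptor, at -0.60. Related kinases and adaptors gave 10 of 21 lower and 4 higher, among them the closest relatives of the members, Lcp2 (-1.13), Lat2 (-0.63) and Tec (-0.54) on the lower side. In the calcium, diacylglycerol and NF-kappaB branch 8 of 27 were lower and 5 higher, with Itpkb at -0.65, Dgkz at -0.52 and Malt1 at 0.72. Csk lost its call without Fraction 6 library 2 (adjusted p = 0.0662), without Fraction 7 libraries 2 and 3 (0.106) and in the fit of only these gates (0.0757).

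Against Fraction 5, 9 of the 10 were called in Fraction 7, with Blk and Prkcb higher and 7 lower, where 47.6% of tested genes were called, 19.1% higher and 28.5% lower. The same 9 had no overlap between the gates, as had 53.7% of tested genes. Lyn, at 0.04 (95% interval -0.14 to 0.22), was the exception. The largest falls were those of Lat (-2.38), Lck (-1.76) and Fyn (-1.24). After quantile normalization Lyn was called higher (0.24, adjusted p = 0.00363). Btk (-0.23) lost its call after quantile normalization (-0.031, adjusted p = 0.712), in the fit of only these gates (0.0553), without Fraction 7 libraries 2 and 3 (0.353), and without Fraction 5 library 2 or 3 or Fraction 7 library 2 or 3 singly, at 0.0706 to 0.0844. Syk (-0.27) lost its call after quantile normalization (adjusted p = 0.279), in the fit of only these gates (0.0655) and without Fraction 7 libraries 2 and 3 (0.0862). Of the 5 B cell markers 3 were lower and 1 higher here, with a median of -0.45. All 5 germinal centre markers were lower, with a median of -3.34. Of the 5 plasma cell markers 3 were higher and 0 lower, with a median of 1.28. The part of these shifts in the change of the 10 was not tested.

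Fraction 7 was set against LZ to compare mature memory cells with light zone cells. Of the 10, Lat, Lck, Fyn, Blnk and Plcg2 were lower and Blk, Prkcb and Lyn were higher, 8 calls where 62.1% of tested genes were called, 24.1% higher and 38% lower. The gates did not overlap for 8 of the 10 and for 64.4% of tested genes. The median of the 10 was -0.22, against -0.10 over all tested genes. Since most tested genes were called here, the count says little about the 10 as a group. General B cell markers gave 3 of 5 lower and 2 higher, with a median of -0.23. All 5 germinal centre markers were lower, with a median of -3.14. Plasma cell markers gave 3 of 5 higher and 0 lower, with a median of 0.88. The part of these shifts in the change of the 10 was not tested. The phosphatase gene Ptpn22 had 21.0 ± 1.81 FPKM in Fraction 7 and 3.11 ± 0.861 FPKM in LZ (SD, n = 3 each; log2 change 2.44 ± 0.15, SE, adjusted p = 9.02e-09). Sla (1.73) was also higher, whereas Pag1 (-0.80), Csk (-0.51) and Cblb (-0.41) were lower, so the 10 tested genes that control Src kinases gave 3 higher and 5 lower. Inhibitory genes gave 7 of 13 higher and 4 lower, with Pecam1 (1.37) higher and the phosphatase genes Ptpn6 (-0.34) and Inpp5d (-0.41) lower, the last of which turned to 0.018 after quantile normalization. Lilrb3, found under a synonym of Pirb, was higher (1.83), but it belongs to a family of near-identical genes whose reads may be divided in error. Receptor chains gave 3 of 6 higher and 0 lower, and Cd79a (0.37) and Cd81 (0.20) lost their calls when 1 library was left out, at adjusted p up to 0.0676. Related kinases and adaptors gave 7 of 21 higher and 9 lower, including Tec (-0.42), Lat2 (-0.28) and Pik3ap1 (-1.03) on the lower side and Plcg1, the relative of Plcg2 that T cells use, at 0.35 on the higher. In the calcium, diacylglycerol and NF-kappaB branch 11 of 27 were higher and 7 lower, with Dgka (2.27), Rasgrp2 (2.11) and Malt1 (1.55) higher beside Prkcb, and Prkcd (-0.31), the gene of another protein kinase C, lower. The comparisons share libraries, and overlaps between their calls were not tested.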

How the data were processed

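Per the labels' protocols, RNA was extracted with TRIzol and turned into libraries with a NEBNext Ultra kit. That kit does not mark the strand, so reads of overlapping antisense genes could not be told apart. The submitters' processing notes name TopHat2 2.0.8, Cufflinks 2.1.1 and mm9, and the authors deposited FPKM. Depth in reads is not given in the sources used here, and no test for counts was run on these values. The table held 23234 named genes, and 1 row without a name was left out.

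The tests covered the 11266 genes that reached 1 FPKM in 2 or more libraries, on log2(FPKM + 1), which understates the change of low genes. One limma 3.58.1 model (R 4.3.3) held a mean for each of the 6 gates over the 16 libraries, with the prior variance following mean expression. Fold changes are on this log2 scale with standard errors (SE), and p-values were adjusted by Benjamini-Hochberg over all tested genes within a comparison, with a threshold of 0.05. The fit was tested on simulated data. Likeness between genes is Pearson's r of log2(FPKM + 1) over the 16 libraries, which share the 6 gates, among the 8651 genes whose mean reached 5 FPKM in some gate, and is given as a description.

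The 10 genes, the 5 lists of genes around the receptor, the 9 marker lists and the motifs were chosen with earlier results of these data known, so counts over them describe and do not test. Named list genes were, per list and comparison, up to 3 called genes with the smallest adjusted p, plus Csk, Cblb, Ptpn6, Inpp5d, Zap70, Tec, Plcg1, Lat2, Lcp2 and Prkcd as regulators or relatives of the 10. Some genes under this rule are not reported here. Themis2, on the list of related kinases and adaptors, was not found. Promoter windows come from RefSeq on GRCm38.p6, another build than mm9, and hold the 250 bases before a start. The alternatives run were scaling by quantile normalization or by median ratios, a pseudocount of 0.1, no filter or one at 5 FPKM, and fits of the 2 gates compared. Others used the replicate number as a block term, weights per array, 1 library less at a time, and Fraction 7 without libraries 2 and 3.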

Additional observations from a re-analysis of the deposited data

How the results depend on the processing

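Over 7 comparisons the 10 genes had 43 calls, of which 23 were kept in every alternative and 20 were lost in some. Here F5/F3 stands for Fraction 5 against Fraction 3, and so on. Quantile normalization called 6 of the 10 for F5/F3 and 5 for F7/F6, beside 3339 and 2675 of all genes. It turned Fyn (0.052) and Plcg2 (0.061) in F5/F3, Lyn (0.069) in F7/F6, and Btk (0.32) and Inpp5d (0.018) in F7/LZ. It moved the median of all genes in F7/LZ to 0.015, against -0.10 as deposited, and the share of calls that were higher to 49.98%, against 38.8%. The same share was 45.4% against 58.7% for F2/F3, 50.2% against 33.9% for F5/F3, 52.3% against 38.0% for F5/F2, and 45.05% against 34.7% for F7/F6. Median-ratio scaling called 5 of the 10 and 2214 of all genes for F6/F5, and gave Lyn 0.031 in F7/F6 and Btk 0.038 in F7/LZ. Fits of only the 2 gates compared called 1108 of all genes for F2/F3, and for F7/F6 they called 1248 of all genes and 4 of the 10. Without Fraction 7 libraries 2 and 3, F7/F6 had 1477 of all genes and 5 of the 10 called, Lyn was 0.13 there, and Btk was 0.024 in F7/LZ. The cause was not tested, except that fewer samples enter the last 2 settings. With 1 library left out, the 10 gave 0 to 5 calls in F2/F3 (all genes 668 to 1417), 4 to 8 in F5/F2, 1 to 3 in F6/F5 (all genes 1139 to 1821) and 5 to 8 in F7/F6 (all genes 1330 to 2475). A gate left with 1 library is then assumed to vary like the others. Log2 differences that crossed 0 under this, none of them called with all libraries, were in F5/F3 those of Btk (-0.027 to 0.067), Lat (-0.21 to 0.25) and Blnk (-0.013 to 0.14). Lck ran from -0.30 to 0.14 in F2/F3 and from -0.41 to 0.029 in F5/F2, and Btk from -0.052 to 0.13 in F6/F5. In F7/F6, Lyn ran from -0.10 to 0.039 and Prkcb from -0.0057 to 0.18, and in F7/F5 Lyn ran from -0.035 to 0.11. Calls were gained in some alternative by Blnk in F2/F3, by Lyn, Btk, Blnk and Prkcb in F5/F3, and by Fyn and Lat in F5/F2. The same held for Fyn and Syk in F6/F5, for Lyn in F7/F5, and for Syk and Btk in F7/LZ. What same-numbered libraries share beyond the number is not given in the labels. Their deviations from the gate mean correlated at -0.18 to 0.13 between gates that were compared, with 3 of 17 pairs over 0.1. Over all gates they reached 0.16. Unlike-numbered libraries of the compared gates gave -0.15 to 0.18, with 6 of 34 pairs over 0.1. Deviations within gates of 2 or 3 libraries are tied to each other, so these values cannot decide whether libraries are paired. With the replicate number as a block, the 10 again gave 6 calls in F2/F3, 8 in F7/F6 and 8 in F7/LZ. FPKM without read counts give no interval for counting error, which limits low genes such as Lat most.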
